A study of Drosophila melanogaster with 28 samples.

Results

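The 10 chaperone genes described here are the heat-inducible Hsp70 copies (Hsp70Aa, Hsp70Ab, Hsp70Ba, Hsp70Bb, Hsp70Bbb and Hsp70Bc), their relatives Hsp68 and Hsc70-2, the Hsp90 gene Hsp83 and the Hsp40 gene DnaJ-1. They were chosen by name, with earlier results of these data known. All 10 were found among the 17558 genes of the count table for embryos of 14-16 h and among the 17753 genes of the table for embryos of 16-18 h. RNA-seq libraries had been made from whole Drosophila melanogaster embryos carrying mutations in chromatin regulators or a Hox gene and from the control stock w1118. At 14-16 h there were 4 libraries of nej3 and 4 of nejEP1179, a pair of alleles of the CBP acetyltransferase gene nej, and 4 of w1118. At 16-18 h there were 2 libraries labelled Dfd1 (a Hox gene), 3 labelled ez731 (the Polycomb methyltransferase gene E(z)), 2 labelled psce22 and 3 labelled psch27 (alleles of the Polycomb gene Psc), 3 labelled SppsG8810 (a Polycomb recruiter gene) and 3 of w1118. Mutants were kept as heterozygous stocks, and eggs were laid over 2 h and aged at 25 °C. Each mutant library pooled 20 to 30 embryos picked by hand for morphology and for lack of the GFP of the balancer chromosome. The study states that the gross morphology of nej mutants was still normal at 14-16 h. Mutant embryos were dechorionated and sorted in halocarbon oil, and the study does not spell out whether the w1118 controls were handled alike. Since w1118 is a separate stock, an effect of a mutation cannot be told apart from stock background or handling. Per the study's stock list, nejEP1179 and SppsG8810 are insertions of a P-element of the EP type. Since whole embryos were used, every library holds RNA of many tissues, and fewer cells of a type cannot be told apart from less RNA per cell. The study describes its replicates as biological, while the labels do not say how egg collections were divided among them, so a p-value here reflects the spread among these libraries.

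Hsp70 and Hsp90 proteins bind unfolded or immature proteins and use ATP to fold them or hold them in an active state. Proteins of the Hsp40 (J-domain) class hand substrates to Hsp70 and speed its ATP cycle, and other cochaperones release the nucleotide or join Hsp70 to Hsp90. In Drosophila the Hsp70 genes are nearly silent in unstressed cells and are switched on within minutes of heat by the heat shock factor Hsf, which frees an RNA polymerase held just past the promoter, whereas Hsp83 and the cognate genes are also active without stress.

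The Hsp70 copies lie in a pair of clusters on chromosome arm 3R (dm6 coordinates, Ensembl annotation), each copy a single exon. Hsp70Aa (3R 11954163 to 11956544, minus strand) and Hsp70Ab (3R 11958535 to 11960909, plus strand) form one cluster and point away from each other across a gap of 1990 bp. Hsp70Ba (3R 12465453 to 12467776, minus strand), Hsp70Bbb (3R 12502510 to 12504856), Hsp70Bb (3R 12505793 to 12508139) and Hsp70Bc (3R 12509076 to 12511461, these last all on the plus strand) form the other cluster, in which Hsp70Bbb, Hsp70Bb and Hsp70Bc follow each other at gaps of 936 bp. Hsp68 (3R 24055080 to 24057310, minus strand) and Hsc70-2 (3R 13044759 to 13047388, plus strand, 2 exon blocks) lie elsewhere on the same arm. Hsp83 (3L 3192969 to 3197059, plus strand, 2 exon blocks) and DnaJ-1 (3L 5750029 to 5752189, minus strand, 1 exon block) lie on 3L. The copies are near-identical in sequence, so a read of one copy may be counted to another or dropped, and the sum over the 6 copies is given beside each copy. Hsp70Ab overlaps CG3281 by 27 bp, Hsp83 overlaps CG14966 by 15 bp, and Hsp68 overlaps CG6000 and lncRNA:CR44097 by 13 bp, in each case on the opposite strand. Whether reads were counted by strand is not given in the sources used here.

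Counts summed to between 13129082 and 21509453 per library at 14-16 h and to between 17940038 and 22354257 at 16-18 h. Levels are CPM, counts per 1e+06 counts of the library, and 3 counts, the limit that a count of 0 allows, correspond to 0.139 to 0.229 CPM at 14-16 h and 0.134 to 0.167 CPM at 16-18 h (counting error only, since PCR reads without molecular identifiers are not independent molecules). Summed markers of neurons (5 genes) stood at 1530 to 2117 CPM at 14-16 h and 1307 to 1834 CPM at 16-18 h, and summed markers of muscle (5 genes) at 20875 to 25733 and 27643 to 35227 CPM. The nej transcript averaged 241 ± 10.2 CPM in nej3 and 409 ± 72.5 CPM in nejEP1179, against 254 ± 11.7 CPM in w1118 (SD, n = 4 each). At 16-18 h the labels of the count columns and the deposited tables per mutant go against each other. The mean normalized counts of the deposited tables could be recomputed from the columns of the same label for Dfd1 alone among the 5 mutants of this age. The deposited SppsG8810 table was given by the ez731 columns, the ez731 table by both psce22 columns and psch27 replicate 1, the psce22 table by psch27 replicates 2 and 3, and the psch27 table by the SppsG8810 columns. In the libraries labelled SppsG8810 the Psc transcript averaged 325 ± 12.4 CPM, against 27.8 ± 3.74 CPM in w1118 (SD, n = 3 each), and in psch27 replicates 1, 2 and 3 it had 18.2, 117 and 124 CPM. The E(z) transcript had 15.9 and 14.5 CPM in the psce22 libraries and 15.7 CPM in psch27 replicate 1, against 23.1 to 25.2 CPM in w1118 (psce22 over w1118 -0.71 ± 0.17 on the log2 scale, edgeR adjusted p = 0.0073). The libraries labelled psch27 thus differed among themselves in the way the deposited tables divide them. Groups of 16-18 h other than Dfd1 and w1118 are therefore called by the label of the column, and a result that differs with the columns of the deposited tables is given with both. Fits by label keep psch27 replicates 1, 2 and 3 in a single group, and their differences enter the spread shared by all tests of this age. For the libraries labelled SppsG8810 the SE of Hsp83 was 0.21 by label and 0.17 by the deposited tables. That of the summed Hsp70 was 0.91 and 0.98.

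At 14-16 h the heat-inducible chaperone genes stood far higher in nej3 embryos than in w1118 embryos. The summed Hsp70 copies had 100.5, 89.6, 48.8 and 41.6 CPM in the nej3 libraries, against 2.46, 1.67, 1.91 and 2.02 CPM in the w1118 libraries. Every nej3 library lay at least an order of magnitude above every control. The log2 fold change of the sum was 5.16 ± 1.11 (SE; edgeR quasi-likelihood test with Benjamini-Hochberg adjustment over all genes, adjusted p = 0.0086), a fold change of 35.7. An exact permutation test of the mean log2(CPM + 1) of the sum in the 4 against 4 libraries gave p = 0.0286, two-sided, which is the smallest that this design allows.

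Of the 10 chaperone genes, 9 were called higher in nej3 at an adjusted p under 0.05, where 12.3% of the 10397 genes tested were called higher and 11.7% lower. In 9 of the 10 every nej3 library lay above every w1118 library, which held for 11.0% of all genes. The gene that was not called was Hsp70Ba, with 4.57, 9.40, 2.05 and 0.915 CPM in nej3 and 0.934, 0.526, 0.837 and 0.840 CPM in w1118. It was the copy whose groups overlapped, through replicate 4 of nej3 (log2 fold change 2.48 ± 1.0, adjusted p = 0.11; 0.073 to 0.29 on leaving out each library in turn).

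Hsp70Bb was the most abundant copy in nej3. It had 44.3, 36.3, 19.5 and 18.7 CPM in nej3, against 0.492, 0.670, 0.511 and 0.728 CPM in w1118 (log2 fold change 5.66 ± 1.11, adjusted p = 0.0054). Hsp70Ab had 26.9, 22.3, 13.9 and 11.7 CPM in nej3, against 0.787, 0.335, 0.465 and 0.392 CPM in w1118 (5.25 ± 1.22, adjusted p = 0.013). In both copies replicates 1 and 2 of nej3 stood above replicates 3 and 4, and no control reached 1 CPM. Hsp70Bc had 17.8, 15.4, 8.67 and 7.37 CPM in nej3, while the w1118 libraries held 2, 0, 1 and 0 counts of it. With only 3 counts in the controls its fitted value (8.17 ± 1.46, adjusted p = 0.0031) depends on the prior count, and the ratio of the summed counts scaled to depth was 328 with a 95% counting interval of 112 to 1593. Hsp70Aa, at 3.44, 2.49, 3.01 and 1.14 CPM in nej3, also had 3 counts over the w1118 libraries, and its ratio was 67.6 (95% counting interval 22.8 to 331). Hsp70Bbb had 3.51, 3.68, 1.60 and 1.71 CPM in nej3 and 0 to 0.143 CPM in w1118 (5.29 ± 0.997, adjusted p = 0.0028).

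The copies took different shares of the summed counts in the mutant and the control embryos. In nej3 Hsp70Bb took 42.2% (Clopper-Pearson 95% interval 40.8 to 43.5%), Hsp70Ab 26.6%, Hsp70Bc 17.6% (16.5 to 18.6%), Hsp70Ba 6.25% (5.60 to 6.95%), Hsp70Bbb 3.76% and Hsp70Aa 3.62% of 5106 counts. In w1118 Hsp70Ba took 38.9% (31.3 to 46.9%), Hsp70Bb 29.6%, Hsp70Ab 24.7%, Hsp70Bbb 3.09%, and Hsp70Aa and Hsp70Bc 1.85% each (0.384 to 5.32%) of 162 counts. Hsp70Ba thus took the largest share of the summed control counts, but its interval overlapped that of Hsp70Bb (22.7 to 37.3%). In w1118 replicate 2 Hsp70Bb stood above Hsp70Ba. In nej3 Hsp70Ba ranked below Hsp70Bb, Hsp70Ab and Hsp70Bc. These intervals cover counting error within the summed libraries only, and any exchange of reads between copies enters them. They do not cover differences between libraries, and Hsp70Ba ran from 0.915 to 9.40 CPM over the nej3 libraries.

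Hsp68, a heat-inducible Hsp70 relative with a sequence of its own, moved with the copies. It had 160.1, 134, 104 and 76.1 CPM in nej3, against 4.62, 3.54, 3.21 and 3.92 CPM in w1118. The groups lay apart without overlap, and the order of the nej3 libraries was the same as for the summed Hsp70. The log2 fold change was 4.99 ± 0.70 (adjusted p = 0.00073), a fold change of 31.9.

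Hsp83, the Hsp90 gene, started from a high control level. It had 1492, 1202, 1297 and 1091 CPM in nej3, against 569, 575, 578 and 555 CPM in w1118 (log2 fold change 1.19 ± 0.12, adjusted p = 1.5e-05). The controls spanned a narrow range, and the lowest nej3 library stood far above their highest. DnaJ-1, an Hsp40 cochaperone of Hsp70, had 470.3, 432, 318 and 339 CPM in nej3, against 167, 155, 156 and 156 CPM in w1118 (1.34 ± 0.21, adjusted p = 0.0011). Per kb of exon, the scale on which genes can be compared, Hsp83 led in both groups (429 ± 57.4 CPM per kb in nej3 and 192 ± 3.42 in w1118, SD, n = 4 each). It was followed by DnaJ-1 (180 ± 33.8 in nej3 and 73.4 ± 2.61 in w1118) and Hsp68 (53.2 ± 16.3 in nej3 and 1.71 ± 0.272 in w1118). Hsc70-2, a heat shock cognate of the Hsp70 family, had 10.8, 7.61, 9.57 and 8.80 CPM in nej3, against 2.75, 2.01, 2.42 and 1.46 CPM in w1118 (2.11 ± 0.15, adjusted p = 6e-08). Its nej3 libraries did not follow the order of the summed Hsp70 and Hsp68.

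**Figure D1:**
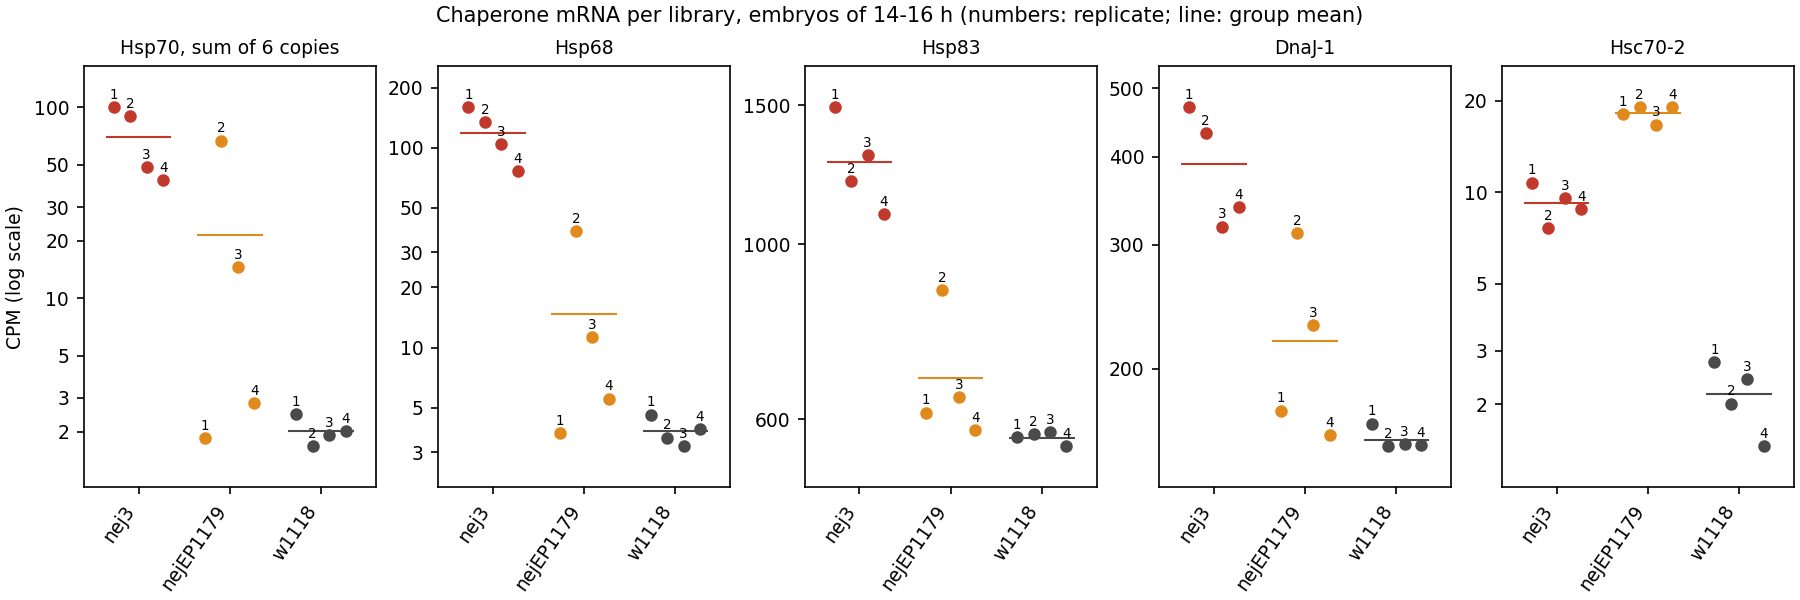
CPM of the summed Hsp70 copies, Hsp68, Hsp83, DnaJ-1 and Hsc70-2 in each library of 14-16 h embryos (log axis; numbers mark replicates, lines the group means). The nej3 libraries lie above every w1118 library in all 5 panels, and nejEP1179 replicate 2 lies far above the rest of its group for the summed Hsp70 and Hsp68, and less far for Hsp83 and DnaJ-1, but not for Hsc70-2, where the nejEP1179 libraries at 16.7 to 19.1 CPM lie above both other groups.

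In nejEP1179 embryos the same genes gave a divided picture, and the libraries of that group differed widely. The summed Hsp70 copies had 1.84, 66.8, 14.5 and 2.82 CPM in nejEP1179 replicates 1 to 4, against 1.67 to 2.46 CPM in w1118. Replicate 2 stood at 10.5 times the mean of the other nejEP1179 libraries, replicate 3 came next, and replicate 1 lay within the control range. The log2 fold change of the sum was 3.50 ± 1.14 (adjusted p = 0.052, edgeR), and the exact permutation p was 0.114, two-sided. DESeq2 called the sum (log2 fold change 3.46, adjusted p = 0.0012). Without replicate 2 the value was 1.77, and over all fits that left out a library of these groups it ran between 1.77 and 3.88 with adjusted p between 0.023 and 0.16.

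Of the 10 genes, 4 were called higher in nejEP1179, where 12.6% of all genes were called higher and 12.3% lower. They were Hsp70Ab, Hsp70Bb, Hsp70Bc and Hsc70-2. Only 3 of the 10 had every nejEP1179 library above every control (11.4% of all genes): Hsp70Bb, Hsc70-2 and Hsp83. The count of 4 was not stable. It was 8 with DESeq2, 1 without the filter on low counts, 1 in a fit of only these 8 libraries, 1 without nejEP1179 replicate 2 or 3 or any w1118 replicate, and 7 without nejEP1179 replicate 1. Hsc70-2 was called in each of these fits.

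Hsp70Bb had 1.17, 26.5, 4.94 and 1.37 CPM in nejEP1179, against 0.492 to 0.728 CPM in w1118 (3.93 ± 1.19, adjusted p = 0.040). Hsp70Ab had 0.502, 24.1, 5.66 and 0.533 CPM in nejEP1179, against 0.335 to 0.787 CPM in w1118 (4.04 ± 1.28, adjusted p = 0.047). In Hsp70Ab replicates 1 and 4 lay among the controls. Hsp70Bc had 0.0558, 7.31, 1.18 and 0.381 CPM in nejEP1179, and the ratio of its summed counts to the 3 counts of w1118 was 69.0 (95% counting interval 23.2 to 338). Hsp70Aa gave a ratio of 18.7 (6.06 to 94.0), with 0 counts in nejEP1179 replicates 1 and 4. The other copies were not called, with log2 fold changes of 3.98 ± 1.49 for Hsp70Aa (adjusted p = 0.077), 3.55 ± 1.21 for Hsp70Bbb (adjusted p = 0.054) and 1.30 ± 1.08 for Hsp70Ba (adjusted p = 0.42).

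Hsp68 had 3.74, 38.2, 11.3 and 5.56 CPM in nejEP1179, against 3.21 to 4.62 CPM in w1118 (2.03 ± 0.73, adjusted p = 0.072). Hsp83 had 612, 874, 640.1 and 582 CPM in nejEP1179, against 555 to 578 CPM in w1118. All of these lay above the controls, but by little apart from replicate 2 (0.29 ± 0.12, adjusted p = 0.093). DnaJ-1 had 174, 311, 230.5 and 161 CPM in nejEP1179, against 155 to 167 CPM in w1118 (0.51 ± 0.20, adjusted p = 0.099). Replicate 2 was again the highest, at 1.65 times the mean of the others for DnaJ-1, 1.43 times for Hsp83 and 5.57 times for Hsp68. Hsc70-2 stood apart from this order. It had 18.1, 19.1, 16.7 and 19.0 CPM in nejEP1179, with replicate 2 at 1.06 times the mean of the others, against 1.46 to 2.75 CPM in w1118 (3.11 ± 0.15, adjusted p = 4.1e-10), a fold change of 8.61.

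**Figure D2:**
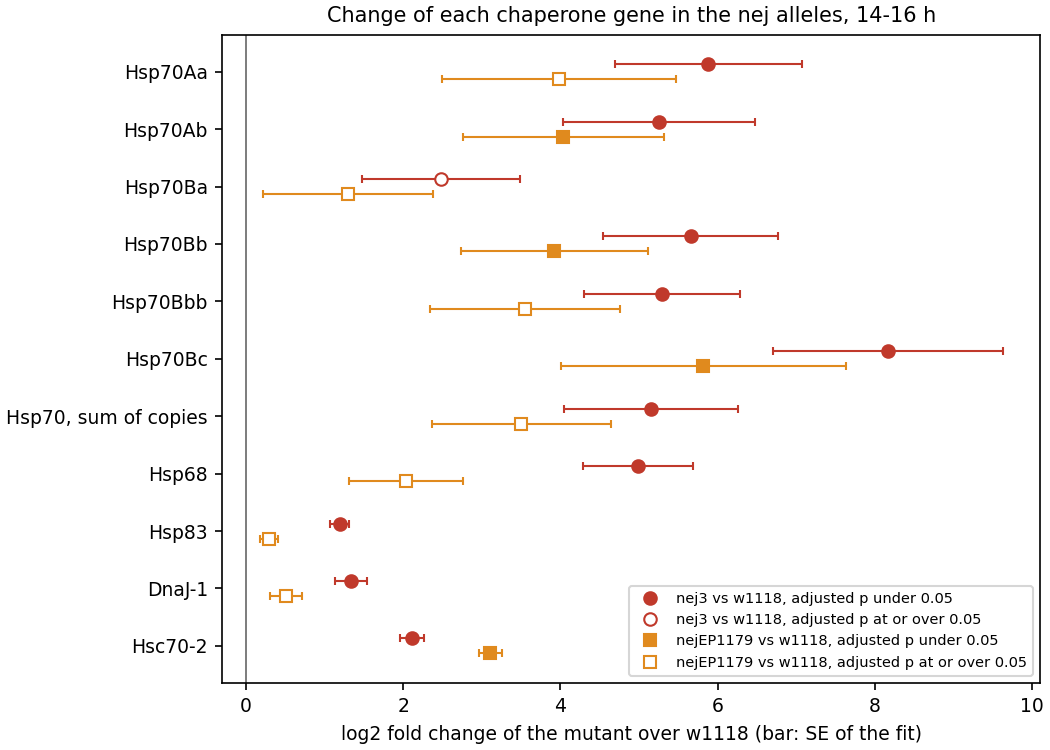
Log2 fold change of each chaperone gene and of the summed Hsp70 copies in nej3 and nejEP1179 over w1118 (bars are the SE of the edgeR fit; filled symbols have an adjusted p under 0.05). Values for nej3 lie above those for nejEP1179 for every gene except Hsc70-2 (2.11 in nej3 and 3.11 in nejEP1179), and both comparisons use the same 4 controls.

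Compared directly, nej3 had more Hsp68, Hsp83 and DnaJ-1 mRNA than nejEP1179 and less Hsc70-2 mRNA. In total 3 of the 10 genes were called higher and 1 lower in nej3, where 5.0% of all genes were called higher and 4.30% lower. Hsp68 averaged 119 ± 36.4 CPM in nej3 and 14.7 ± 16.0 CPM in nejEP1179 (SD, n = 4 each), a log2 difference of 2.96 ± 0.60 (SE, adjusted p = 0.016). Hsp83 averaged 1270.4 ± 169.96 CPM in nej3 and 677 ± 134 CPM in nejEP1179, a log2 difference of 0.90 ± 0.12 (adjusted p = 0.00052). For both genes no library of one allele reached into the range of the other. DnaJ-1 averaged 389.8 ± 73.0 CPM in nej3, against 219 ± 68.4 CPM in nejEP1179 (0.83 ± 0.20, adjusted p = 0.035), a call that was lost without any one of nej3 replicates 1 and 2 and nejEP1179 replicates 1, 3 and 4 (adjusted p = 0.078 without nejEP1179 replicate 3), without the filter on low counts (0.053) and in a fit of only these 8 libraries (0.11). The level of Hsc70-2 was 9.19 ± 1.33 CPM in nej3, against 18.2 ± 1.11 CPM in nejEP1179 (log2 difference -0.998 ± 0.13, adjusted p = 0.00012). Every nej3 library lay above every nejEP1179 library for Hsp70Bc, Hsp68, Hsp83 and DnaJ-1, as for 6.83% of all genes, and below for Hsc70-2, as for 6.40% of all genes.

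The summed Hsp70 copies did not pass in this comparison (1.65 ± 0.84, adjusted p = 0.28, exact permutation p = 0.0857, two-sided). The single copies had log2 differences of 1.19 (Hsp70Ba) to 2.35 (Hsp70Bc), with adjusted p between 0.11 and 0.47. Here nejEP1179 replicate 2 decided the outcome. Without it the difference of the sum was 3.38 ± 0.64 (adjusted p = 0.016), and 9 genes were called in place of 4, with Hsp70Bb at 3.50 ± 0.53 (adjusted p = 0.0050) and Hsp70Bc at 4.42 ± 0.61 (adjusted p = 0.0023). Without nejEP1179 replicate 3, and in a fit of only these 8 libraries, 2 genes were called, with Hsp68 at an adjusted p of 0.054 and 0.081.

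Other chaperones of the cytosol were followed from lists of named genes. Beside these lists, 12.3% of all genes were called higher and 11.7% lower in nej3. In nejEP1179, 12.6% of all genes were called higher and 12.3% lower. Of 6 tested small heat shock protein genes, whose products hold unfolded proteins without ATP, 5 were higher in nej3 than in w1118, with a median log2 fold change of 2.72 beside -0.01 over all genes. Hsp67Bc (1.46 ± 0.13, adjusted p = 8.5e-06), Hsp27 (4.91 ± 0.55, adjusted p = 0.00018), Hsp23 (3.97 ± 0.56, adjusted p = 0.00079) and l(2)efl (0.38 ± 0.08, adjusted p = 0.0018) led by p. In nejEP1179, 1 of the 6 was higher (Hsp27, 1.93 ± 0.54, adjusted p = 0.028) and 1 lower (Hsp67Ba, -0.73 ± 0.19, adjusted p = 0.010), with a median of 0.57. These counts were near the shares of all genes. Hsp22 and Hsp67Bb did not pass the filter on low counts.

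Among the 5 constitutive members of the Hsp70 family, 3 were higher in nej3 (12.3% of all genes), all by small amounts (median 0.19). They were Hsc70Cb, an Hsp110-type exchange factor (0.35 ± 0.05, adjusted p = 8.5e-05), Hsc70-4, the main cytosolic cognate (0.33 ± 0.05, adjusted p = 0.00017), and Hsc70-3, the Hsp70 of the endoplasmic reticulum (0.19 ± 0.06, adjusted p = 0.045). In nejEP1179 Hsc70-4 was higher (0.23 ± 0.05, adjusted p = 0.0034) and Hsc70-3 lower (-0.26 ± 0.07, adjusted p = 0.0094), and the other 3 did not pass. Of 11 measured cochaperones of Hsp70 and Hsp90, 4 were higher in nej3, beside 12.3% of all genes (median 0.02). These were stv, a BAG-domain exchange factor of Hsp70 (0.996 ± 0.08, adjusted p = 4.2e-07), Hop, which links Hsp70 and Hsp90 (0.50 ± 0.07, adjusted p = 4.5e-05), the J-domain gene Droj2 (0.23 ± 0.06, adjusted p = 0.0059) and Cdc37, which brings kinases to Hsp90 (0.20 ± 0.06, adjusted p = 0.023). In nejEP1179 stv was higher (0.29 ± 0.08, adjusted p = 0.017), Cdc37 (-0.19 ± 0.06, adjusted p = 0.031) and the J-domain gene mrj (-0.14 ± 0.04, adjusted p = 0.036) were lower, and 8 did not pass. For both lists the counts in nejEP1179 were near the shares of all genes (12.6% higher and 12.3% lower).

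The heat shock factor gene Hsf had 120 to 171 CPM in nej3, against 97.8 to 101 CPM in w1118 (0.64 ± 0.14, adjusted p = 0.0075). The stress-induced nuclear RNA lncRNA:Hsromega had 198 to 281 CPM in nej3, against 114 to 128 CPM in w1118 (0.99 ± 0.24, adjusted p = 0.015). Neither passed in nejEP1179. The 8 genes of the list for the endoplasmic reticulum and mitochondria, chaperones together with Xbp1, a transcription factor of the unfolded protein response, did not pass in nej3 (median -0.04, adjusted p = 0.11 to 0.76). In nejEP1179 the endoplasmic Hsp90 gene Gp93 (-0.32 ± 0.05, adjusted p = 0.00021) and the disulfide isomerase gene ERp60 (-0.23 ± 0.07, adjusted p = 0.021) were lower, beside 12.3% of all genes, and 6 did not pass. Of 13 other stress genes, 4 were higher and 3 lower in nej3 (12.3% and 11.7% of all genes). In nejEP1179, 3 were higher and 2 lower (12.6% and 12.3% of all genes). The glutathione transferase gene GstE1 was higher in both alleles (1.86 ± 0.08 in nej3, adjusted p = 8.6e-11, and 1.47 ± 0.08 in nejEP1179, adjusted p = 1.6e-09). Gadd45, a DNA damage and stress gene, was lower in both (-0.77 ± 0.13 in nej3, adjusted p = 0.00072, and -1.15 ± 0.14 in nejEP1179, adjusted p = 2.9e-05). Both comparisons use the same controls.

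As a description, the genes whose levels ran most like the summed Hsp70 over the 12 libraries of 14-16 h were ranked by Spearman's rho of log2(CPM + 1) among 8039 genes with a mean of at least 5 CPM. Among the chaperone genes themselves, rho with the sum was 0.958 for Hsp68, 0.888 for DnaJ-1 and 0.825 for Hsp83, but 0.413 for Hsc70-2. Outside them the 8 highest were CG1907 (0.944), SNF4Agamma, the gamma subunit of AMP-activated kinase (0.937), the small heat shock gene Hsp26 (0.937), CG9514 (0.930), Nop17l and CG10979 (0.923 each), and Fpps, farnesyl pyrophosphate synthase, and Hydr2 (0.916 each). Over the 16 libraries of 16-18 h, Hsp26 had a rho of 0.697, Hydr2 of 0.579 and CG1907 of -0.318. At 14-16 h 16 genes reached 0.9, and at 16-18 h 0 of 8392 did. The points share the group structure and the libraries, and by Pearson's r only 2 of the 8 names stayed among the first 8.

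**Figure D3:**
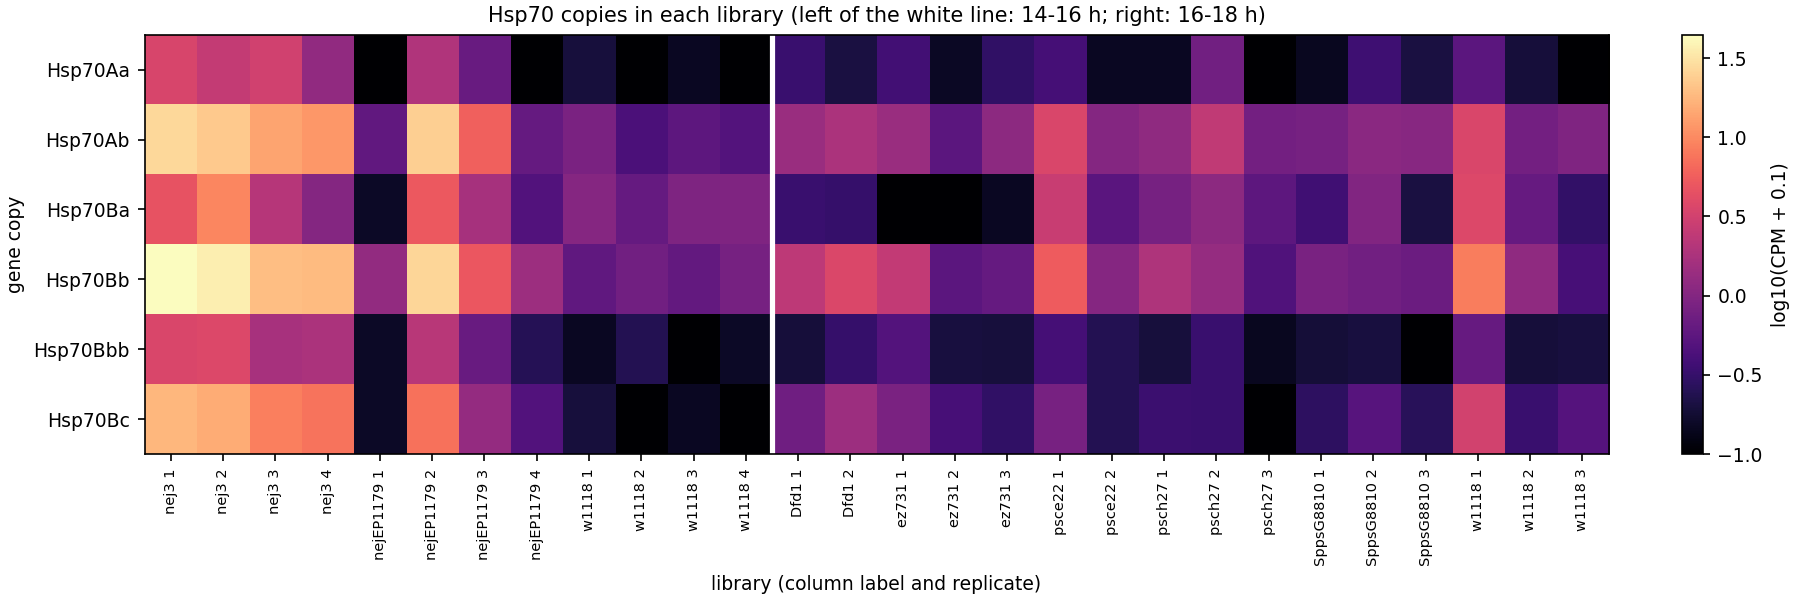
Level of each Hsp70 copy in all 28 libraries, as log10(CPM + 0.1), with 14-16 h left of the white line and 16-18 h right of it. The 4 nej3 libraries and nejEP1179 replicate 2 are high for nearly all copies, as is w1118 replicate 1 of 16-18 h relative to the other controls of its age, and Hsp70Ba is dark in the 3 libraries labelled ez731.

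At 16-18 h the w1118 controls were uneven, and this touches each comparison below. The summed Hsp70 had 19.7 CPM in w1118 replicate 1, against 2.75 and 1.86 CPM in replicates 2 and 3. Hsp68 had 27.97 CPM in replicate 1, against 2.48 and 1.21 CPM in the other controls, and Hsp70Bb had 8.48 CPM, against 1.10 and 0.301 CPM. This control stood above each of the 13 mutant libraries for Hsp68, the sum and every copy except Hsp70Aa. The 13 mutant libraries had 1.36 to 12.9 CPM of the summed Hsp70 (median 3.30), and 7 of them lay above both other controls. For Hsp68 they had 1.97 to 12.6 CPM (median 4.80), and 11 lay above both other controls. For Hsp83 (240.4 CPM in replicate 1, against 200.3 and 187 CPM) and DnaJ-1 (156.5 CPM, against 133 and 123 CPM) replicate 1 was also the highest control, by less. For Hsc70-2 it lay between the others (4.14 CPM, against 3.67 and 5.68 CPM). The small heat shock gene Hsp26 had 38.7 CPM in replicate 1, against 6.7 and 6.6 CPM.

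With this spread, no comparison of 16-18 h gave a call for the summed Hsp70. Its log2 fold changes over w1118 were -0.62 ± 0.98 for Dfd1, -1.48 ± 0.90 for the libraries labelled ez731, -0.13 ± 0.96 for psce22, -1.10 ± 0.88 for psch27 and -1.75 ± 0.91 for SppsG8810 (edgeR, adjusted p = 0.24 to 0.93). Exact permutation tests compared the mean log2(CPM + 1) of the sum, which differed from w1118 by 0.17 for Dfd1 and 0.23 for psce22, the opposite sign to the edgeR values, and by -0.45 for psch27, -0.77 for ez731 and -0.84 for SppsG8810. Their p-values were 0.6 to 1, two-sided, where the design cannot go below 0.1. Without w1118 replicate 1 all 5 signs turned, to between 0.08 and 1.70, and still none was called. The direction of the summed Hsp70 at this age thus rests on a single control library, and in psce22 it also turned without psce22 replicate 2 (0.63). Single copies that kept a value below 0 without that control were Hsp70Ba in ez731 (-4.02) and Dfd1 (-0.91), Hsp70Bc in psch27 (-0.95) and SppsG8810 (-0.32), and Hsp70Bb in SppsG8810 (-0.072). Hsp70Aa and Hsp70Bbb did not pass the filter on low counts at this age, which left 8 of the 10 genes tested.

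In the Dfd1 libraries Hsp83 was called higher and Hsc70-2 lower, and most of the other fits lost the call of Hsc70-2. These were the 2 calls of 8 (1 higher and 1 lower), where 25.5% of the 11366 genes tested were called higher and 27.0% lower. Calls were thus no more frequent among these genes than among all genes. Hsp83 had 568 and 352 CPM in Dfd1, against 240.4, 200.3 and 187 CPM in w1118 (0.97 ± 0.23, adjusted p = 0.0044). Both Dfd1 libraries lay above every control, as they did for 48.6% of all genes. Hsc70-2 had 3.30 and 3.49 CPM in Dfd1, against 4.14, 3.67 and 5.68 CPM in w1118 (-0.56 ± 0.21, adjusted p = 0.038), and DnaJ-1 had 122 and 112 CPM in Dfd1, against 156.5, 133 and 123 CPM in w1118 (-0.39 ± 0.16, adjusted p = 0.057). For these 2 genes both Dfd1 libraries lay below every control (28.4% of all genes). Hsp68 had 8.38 and 12.6 CPM in Dfd1, both within the control range (-0.18 ± 1.02, adjusted p = 0.90), and without w1118 replicate 1 its value was 2.35 ± 0.70 (adjusted p = 0.018). Leaving out Dfd1 replicate 1 ended both calls (Hsp83 0.61, adjusted p = 0.091), and that of Hsc70-2 was also lost without Dfd1 replicate 2 (adjusted p = 0.10), w1118 replicate 1 (0.052) or w1118 replicate 3 (0.15), with DESeq2 (adjusted p = 0.0503), without the filter on low counts (adjusted p = 0.063) and in a fit of only these 5 libraries (adjusted p = 0.089).

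The Hsp70 copies were not called in Dfd1. Hsp70Ba had 0.229 and 0.215 CPM in Dfd1, against 3.64, 0.550 and 0.201 CPM in w1118 (-2.85 ± 1.25, adjusted p = 0.074). It was called lower with DESeq2 (-2.88, adjusted p = 0.036) and without w1118 replicate 3 (-3.37, adjusted p = 0.029), but stood at an adjusted p of 0.53 without w1118 replicate 1. DnaJ-1 was called lower in a fit of only these 5 libraries (adjusted p = 0.029) and without w1118 replicate 3 (adjusted p = 0.039), so a count of 2 calls in Dfd1 does not always hold the same genes. Hsp70Ab had 1.28 and 1.72 CPM in Dfd1 (-0.34 ± 0.75, adjusted p = 0.73), Hsp70Bb 2.24 and 3.55 CPM (-0.36 ± 1.10, adjusted p = 0.81) and Hsp70Bc 0.641 and 1.34 CPM (-0.49 ± 0.98, adjusted p = 0.70), each between the highest control and the other two.

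Eggshell and yolk transcripts moved with the Dfd1 label. Summed eggshell and yolk markers, which embryos of this age should lack, stood at 3772 and 1109 CPM in Dfd1 replicates 1 and 2, against 24.1, 8.12 and 6.38 CPM in w1118, with 10 of 10 markers called higher. The eggshell gene Cp36 had 579 and 158 CPM in Dfd1, against 0.897, 0.275 and 0 CPM in w1118. The Dfd1 replicate with more of these transcripts also had more Hsp83. Markers of muscle were lower in Dfd1 for 4 of 5 genes. The part of these transcripts in the change of Hsp83 was not tested. In the libraries labelled SppsG8810, Hsp83 had 287 to 330 CPM while the eggshell and yolk markers summed to 2.68 to 14.6 CPM. Beside the 25.5% of all genes called higher in Dfd1 and the 27.0% called lower, 8 of 11 cochaperones were higher and 2 lower (median 0.42 beside 0.02 over all genes), and 5 of 6 small heat shock genes were higher (median 1.37). Of the 5 constitutive Hsp70 genes 2 were higher and 1 lower, a share near that of all genes. The J-domain gene DnaJ-H (0.87 ± 0.12, adjusted p = 0.00012), Hop (0.64 ± 0.13, adjusted p = 0.00096) and the immunophilin gene Fkbp59 (0.60 ± 0.12, adjusted p = 0.0012) were higher, and stv was lower (-0.78 ± 0.10, adjusted p = 5.8e-05). Hsf (0.32 ± 0.10, adjusted p = 0.020) and lncRNA:Hsromega (0.80 ± 0.14, adjusted p = 0.00052) were higher too.

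In the libraries labelled ez731, Hsp70Ba was nearly absent. It had 0, 0 and 1 counts there, against 73, 12 and 4 counts in w1118, that is 3.64, 0.550 and 0.201 CPM in the controls. The ratio of the summed counts was 0.0118 (95% counting interval 0.000297 to 0.0677), and the fitted value was -5.96 ± 1.61 (adjusted p = 0.016). This was the single call of 8 genes, where 13.2% of all genes were called higher and 15.8% lower. Every other labelled group had at least 9 counts of Hsp70Ba. Hsp70Bb of the same cluster had 2.40, 0.454 and 0.528 CPM in the same libraries and was not called (-1.54 ± 1.05, adjusted p = 0.30), nor were Hsp70Ab (-0.82 ± 0.70, adjusted p = 0.41) and Hsp70Bc (-1.52 ± 0.96, adjusted p = 0.26). Hsp68 had 5.96, 3.28 and 4.80 CPM in these libraries, against 27.97, 2.48 and 1.21 CPM in w1118 (-1.13 ± 0.94, adjusted p = 0.40), and Hsc70-2 had 4.24, 3.78 and 3.70 CPM (-0.15 ± 0.18, adjusted p = 0.58). The call was lost without any of the 3 libraries (adjusted p = 0.050 to 0.059) and without w1118 replicate 1 (-4.02, adjusted p = 0.071). These libraries are the columns of the deposited SppsG8810 table, under which name the value was -5.95 ± 1.73 (adjusted p = 0.016), while the columns of the deposited ez731 table gave -0.25 ± 0.90 (adjusted p = 0.84). Hsp83 had 331, 262 and 268 CPM in the libraries labelled ez731, all above the 187 to 240.4 CPM of w1118 (20.4% of all genes), with 0.51 ± 0.21 (adjusted p = 0.095). DESeq2 (adjusted p = 0.041) and a fit of only these 6 libraries (adjusted p = 0.0085) called it. Grouped as in the deposited SppsG8810 table, the same libraries gave 0.51 ± 0.17 for Hsp83 (edgeR, adjusted p = 0.033), a call. The columns of the deposited ez731 table gave -0.18 ± 0.17 (adjusted p = 0.41). For Hsp70Ba and DnaJ-1 (117, 101 and 110.1 CPM, against 156.5, 133 and 123 CPM in w1118) every library labelled ez731 lay below the controls (32.6% of all genes). DnaJ-1 was not called (-0.28 ± 0.14, adjusted p = 0.17). In ez731 replicate 1, the library of this label with the most Hsp83, the eggshell and yolk markers summed to 1301 CPM. They summed to 103 and 89.3 CPM in replicates 2 and 3, and their part in the level of Hsp83 was not tested.

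In the libraries labelled psce22, psch27 and SppsG8810, edgeR and DESeq2 each called 0 of the 8 genes. At an unadjusted p under 0.05 there were 0 for psce22, 2 for psch27 (Hsc70-2 and Hsp70Bc) and 2 for SppsG8810 (Hsp83 and Hsp70Bc). The share of all genes called higher and lower was 17.7% and 21.9% for psce22, 3.48% and 4.0% for psch27, and 3.43% and 5.43% for SppsG8810. For psce22 and psch27 the libraries of all 8 genes overlapped those of w1118, where every library lay above or below the controls for 36.8% and 33.5% of all genes in psce22 and for 9.55% and 15.0% in psch27. Hsp83 had 217 and 197 CPM in psce22 (-0.07 ± 0.24) and 158, 293 and 239.9 CPM in psch27 (0.15 ± 0.21), against 187 to 240.4 CPM in w1118, and the groups overlapped. In SppsG8810 all 3 libraries, at 287 to 330 CPM, lay above the controls, as for 19.2% of all genes (0.53 ± 0.21, adjusted p = 0.16), and the call passed in a fit of only these 6 libraries (adjusted p = 0.013). Grouped as in the deposited psch27 table, the same libraries gave 0.53 ± 0.17 (edgeR, adjusted p = 0.051). DnaJ-1 had 161 and 126 CPM in psce22, 115, 175 and 134 CPM in psch27 and 131, 128 and 124 CPM in SppsG8810, against 123 to 156.5 CPM in w1118, with log2 fold changes between -0.10 and 0.06. Hsc70-2 had 2.66 to 4.27 CPM over the libraries of these labels, against 3.67 to 5.68 CPM in w1118, and its lowest value was -0.52 ± 0.19 in psch27 (adjusted p = 0.11). The tested Hsp70 copies had log2 fold changes between -1.54 (Hsp70Bc) and 0.34 (Hsp70Ab) in psce22, between -2.92 (Hsp70Bc) and -0.27 (Hsp70Ab) in psch27 and between -2.30 (Hsp70Bc) and -0.92 (Hsp70Ab) in SppsG8810, with adjusted p between 0.13 and 0.99. Hsp68 had -0.58 ± 1.04 in psce22, -1.57 ± 0.96 in psch27 and -1.34 ± 0.95 in SppsG8810 (adjusted p = 0.69, 0.38 and 0.47). The columns of the deposited psce22 table, psch27 replicates 2 and 3, gave -0.66 ± 0.19 for Hsc70-2 (adjusted p = 0.036).

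**Figure D4:**
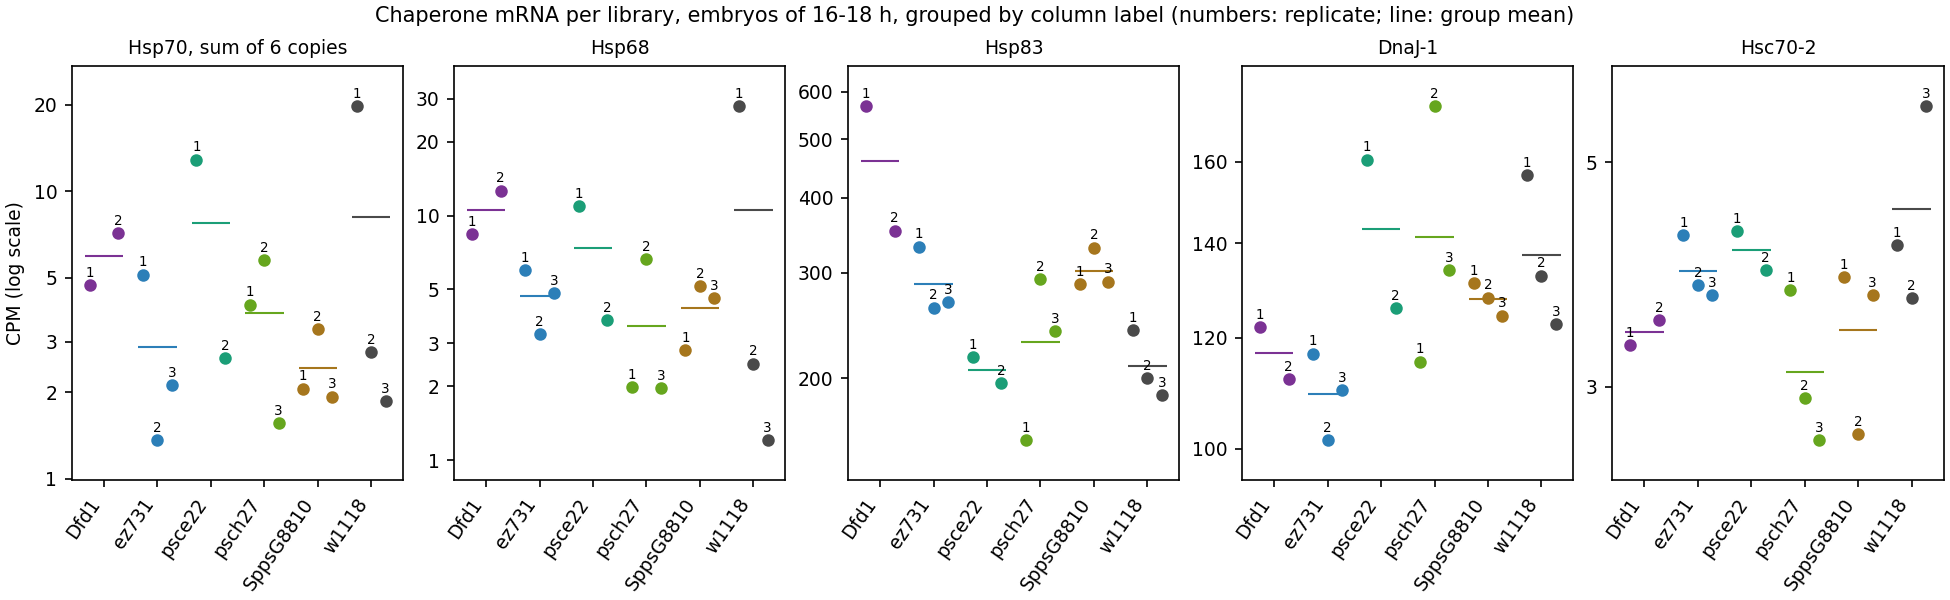
CPM of the same chaperone genes in each library of 16-18 h embryos, grouped by the label of the count column (log axis; numbers mark replicates, lines the group means). For the summed Hsp70 and for Hsp68 w1118 replicate 1, at 19.7 and 27.97 CPM, is the highest library of all, and for Hsp83 Dfd1 replicate 1 is, at 568 CPM.

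Taking the mean of the 5 labelled mutant groups against w1118, 1 of 8 genes was called, Hsp70Ba (-2.31 ± 0.76, adjusted p = 0.043), where 9.14% of all genes were called higher and 16.4% lower. Without w1118 replicate 1 its value was -0.38 (adjusted p = 0.77), and the call was also lost without any of the 3 libraries labelled ez731 (adjusted p = 0.063 to 0.068). The value for Hsp83 was 0.42 ± 0.17 (adjusted p = 0.093) and that for the summed Hsp70 -1.01 ± 0.64 (adjusted p = 0.26). The other 6 genes had values between -1.75 (Hsp70Bc) and -0.14 (DnaJ-1), with adjusted p between 0.077 and 0.59.

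The levels of the w1118 embryos of both ages come from separate tables and are set side by side with no test. Hsp83 averaged 209 ± 27.6 CPM at 16-18 h (n = 3) and 569 ± 10.1 CPM at 14-16 h (SD, n = 4), a ratio of 0.368, and the highest library of 16-18 h lay far below the lowest of 14-16 h. DnaJ-1 averaged 137 ± 17.4 CPM at 16-18 h and 159 ± 5.64 CPM at 14-16 h, with overlapping libraries. Hsc70-2 averaged 4.50 ± 1.05 CPM at 16-18 h and 2.16 ± 0.559 CPM at 14-16 h. The summed Hsp70 averaged 8.12 ± 10.1 CPM at 16-18 h and 2.01 ± 0.329 CPM at 14-16 h. The mean of the older controls was set by replicate 1 at 19.7 CPM, while replicates 2 and 3 (2.75 and 1.86 CPM) lay near the 1.67 to 2.46 CPM of 14-16 h.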

How the data were processed

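The authors deposited 1 table of raw counts for each age. The submitters' processing notes name featureCounts, DESeq2 and the build dm6, with versions not given in the sources used here. The authors also deposited a table per mutant with a mean of normalized counts (a signal scaled by DESeq2 size factors) and their own fold changes and p-values. The deposited means served only to learn which columns were compared, within a relative tolerance of 1e-06, and the fold changes and p-values were not used. Groups follow the labels. CPM used each column's total. Counts were fitted per age with edgeR 4.0.16 (filterByExpr, TMM, robust glmQLFit, group as the only term) in R 4.3.3, which left 10397 and 11366 genes, with Benjamini-Hochberg adjustment over all genes and a threshold of 0.05. The sum of the Hsp70 copies was fitted in a table where it replaced them. The SE of an edgeR value, in text and figures, is its absolute log2 fold change over the square root of the F statistic. Alternatives were DESeq2 1.42.0, RLE scaling, no filter, only the groups compared, a replicate block, the columns of the deposited tables and leaving out each library. The fit was tested on simulated data with the same fixed spread for every gene and no outlying library. That test does not cover genes as uneven between libraries as the Hsp70 copies. No replicates were copies (chi-square per degree of freedom 2.94 to 139 over 32 pairs). All members that passed the filter were named in each comparison, some copies by their range, with up to 4 genes per list by smallest adjusted p, the 8 genes most like the Hsp70 sum, and nej. The list of cochaperones had 12 genes, of which Aha1 was not matched. Psc, E(z), Cp36 and Hsp26 at 16-18 h were named after their values were seen. Members and lists were chosen with earlier results of these data known. Promoter sequences were not used here, so a planned search for heat shock elements was not run.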

Additional observations from a re-analysis of the deposited data

Results flagged for a closer look

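Within groups of 4 libraries, each gene and the summed Hsp70 were checked for a library far from the others. Of 33 combinations with a group, 3 stood out. Chance alone picks about 1 in 20 among independent combinations. The copies and their sum come from the same libraries and may share reads, so the count cannot be set against that rate. Hsp70Bb in nejEP1179 replicate 2 had 26.5 CPM and the next library of that group 4.94 CPM, so that the gap took 0.851 of the group's range. Hsp70Bc in the same library had 7.31 CPM and the next 1.18 CPM (0.845 of the range). DnaJ-1 in w1118 replicate 1 at 14-16 h had 167 CPM and the next control 156 CPM (0.902 of the range), a small gap within a narrow group. The groups of 2 or 3 libraries at 16-18 h, w1118 replicate 1 among them, were too small to be checked in this way.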

How the results depend on the processing

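For nej3 against w1118 every alternative called 9 genes, with Hsp70Ba the exception each time. The count in nejEP1179 was 4, against 1 without the filter on low counts, 8 with DESeq2, 2 with the replicate block and 1 in a fit of only the groups compared, and 1 to 7 when each library was left out in turn. Its Hsp70 sum was 3.46 with DESeq2 (called) and 1.77 to 3.88 on leaving out libraries, and its Hsp70Ba -0.081 to 1.70. For nej3 against nejEP1179 the count of 4 was 3 without the filter, 5 with the replicate block (Hsp70Bbb added, adjusted p = 0.047), 2 with only the groups compared and 2 to 9 on leaving out libraries, and the Hsp70 sum 1.27 to 3.38. The cause of these shifts was not tested.

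At 16-18 h, leaving out libraries gave 0 to 3 calls for Dfd1, 0 to 1 for ez731, 0 to 1 for psch27 and 0 to 2 for the mean of the 5 groups. The Hsp70 sum then ran from -1.10 to 1.20 for Dfd1, -2.15 to 0.35 for ez731, -1.65 to 1.70 for psce22, -1.57 to 0.72 for psch27, -2.22 to 0.078 for SppsG8810 and -1.49 to 0.81 for the mean, and Hsp68 from -0.71 to 2.35 for Dfd1, -1.67 to 1.39 for ez731, -1.53 to 1.94 for psce22, -2.42 to 0.96 for psch27 and -1.87 to 1.18 for SppsG8810. Outside the Hsp70 copies, signs also turned for Hsp83 (-0.15 to 0.052 in psce22, -0.068 to 0.37 in psch27), Hsc70-2 (-0.27 to 0.042 in ez731, -0.30 to 0.0095 in psce22) and DnaJ-1 (-0.15 to 0.20 in psce22, -0.14 to 0.20 in psch27, -0.19 to 0.0093 in SppsG8810). Without the filter on low counts 1 gene was called for Dfd1 and 0 for the mean, with DESeq2 2 for ez731 and 2 for the mean, and with only the groups compared 1 for SppsG8810. With the columns of the deposited tables the calls were 0 for ez731, 1 for psce22 (Hsc70-2), 0 for psch27 and 2 for SppsG8810 (Hsp70Ba and Hsp83). The values that turned were Hsp83 in ez731 (-0.18) and psce22 (0.37), Hsp70Ab in ez731 (0.086) and psce22 (-0.13), Hsp70Ba in psce22 (-0.94) and DnaJ-1 in psch27 (-0.10). The replicate block turned Hsp68 in Dfd1 (0.014) and DnaJ-1 (-0.015) and Hsp70Ba (-0.28) in psce22. In Dfd1 it ended the call of Hsc70-2 (adjusted p = 0.064) and called Hsp70Ba (adjusted p = 0.040). The labels do not say that libraries of the same number belong together. Same-numbered libraries deviated together with r between -0.43 and 0.39 (median 0.026) at 14-16 h and -0.26 and 0.46 (median 0.036) at 16-18 h. Libraries of unlike number had r between -0.55 and 0.55 (median -0.012) at 14-16 h and -0.44 and 0.28 (median -0.032) at 16-18 h. Whether same-numbered libraries shared a batch was not tested. Pearson's r in place of Spearman's rho kept 2 of the 8 genes most like the Hsp70 sum. The planned search of promoters was not run. Depth limits Hsp70Aa, Hsp70Bbb and Hsp70Bc most, with 3 to 5 counts over the 4 controls of 14-16 h.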
